A study of Mus musculus with 12 samples.

Results

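The Tcf/Lef family of DNA-binding proteins was described here through its 4 mouse genes, Lef1, Tcf7, Tcf7l1 and Tcf7l2, which were taken from the count table as the gene rows that carry these symbols, 4 of 23965 gene rows. Older literature calls Tcf7 TCF-1, Tcf7l1 TCF-3 and Tcf7l2 TCF-4. The libraries came from neurospheres, free-floating clusters of neural progenitors, grown from the ventral midbrain of E11.5 CD-1 mouse embryos, expanded over 3 days before a 5 h exposure. There were 4 groups of 3 libraries: GW3965+CT99021 (both compounds), CT99021 alone, GW3965 alone, and control cultures that received the DMSO vehicle. GW3965 is an agonist of the liver X receptors, nuclear receptors for oxidised cholesterol, and CT99021 inhibits the kinase GSK3. The labels name no mutation, transgene or sort, so every group holds whole neurosphere cultures of one outbred strain, and they do not say whether libraries of a group came from separate cultures. The p-values therefore speak only of the variation among these libraries, part or all of which could be technical.

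Tcf/Lef proteins bind DNA through an HMG box and decide what beta-catenin does in the nucleus. Without Wnt signalling they sit on target genes with Groucho/TLE corepressors, and GSK3 marks beta-catenin for destruction. When GSK3 is inhibited, beta-catenin accumulates, enters the nucleus and turns Tcf/Lef proteins into activators. Lef1 and Tcf7 are mostly known as activators, Tcf7l1 mostly as a repressor, and Tcf7l2 as either, depending on the cell and the isoform. In the developing ventral midbrain, Wnt/beta-catenin signalling through these factors takes part in the formation of dopamine neurons.

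The libraries held 9646424 to 21314093 gene counts, and the 4 genes had 79 to 5421 counts in each of them. Progenitor markers were abundant, with a summed level of 2558 to 4436 CPM (counts scaled by library size) for 9 genes such as Sox2, Nes and Vim, and the 9 ventral midbrain markers summed to 340.0 to 577.5 CPM, among them En1, En2, Otx2 and Lmx1a. Vim was the highest of the progenitor markers, with group means of 1790 to 2020 CPM, against 137 to 178 CPM for Sox2. Libraries with the same replicate number resembled each other across groups. The 4 libraries numbered 3 had more mesenchymal RNA (2591 to 3932 CPM over 8 markers such as Col1a1 and Col3a1, against 238 to 2287 CPM in the other 8 libraries) and lower progenitor marker sums (2558 to 3014 CPM against 3092 to 4436 CPM). Erythroid RNA was more abundant still. Its 5 markers, such as Hbb-y, summed to 7309 to 11870 CPM in the libraries numbered 3 and to 2078 to 6208 CPM in the other 8. One further library, GW3965+CT99021 replicate 2, was grouped with the libraries numbered 3 as a set of 5 in some fits below. The sample labels used here do not define this set, so a batch term for it is only an alternative grouping. The mesenchymal and progenitor sums of GW3965+CT99021 replicate 2, 954.5 and 3263 CPM, lay within the ranges of the other 7 libraries. Among libraries numbered 2 its mesenchymal sum was the highest, against 238.2 CPM in control, 251.4 CPM with GW3965 and 353.4 CPM with CT99021. Summed neuronal markers were 1106 to 1462 CPM in the set of 5, with 1377 CPM in that library. They were 1415 to 2062 CPM in the other 7, so these ranges overlapped. The mitochondrial synthetase gene Lars2 took 7.95% of the gene counts of CT99021 replicate 1, against 0.03% to 0.14% in every other library. Repeat rows made up 0.64% of gene and repeat counts in that library, against 0.20% to 0.33% in every other. The cause was not tested.

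In the deposited table Lef1 is listed on chromosome 3 at 130813288 (plus strand), Tcf7 on chromosome 11 at 52066105 (minus), Tcf7l1 on chromosome 6 at 72576373 (minus) and Tcf7l2 on chromosome 19 at 55816199 (plus), all in mouse build mm9. Each has 1 row, so start sites and splice forms cannot be separated, although RefSeq curates 7 transcripts of Lef1, 2 of Tcf7, 2 of Tcf7l1 and 25 of Tcf7l2. Promoter windows from RefSeq run from 250 bases before to 50 after an annotated start in build GRCm38.p6. They are shown for the first start of Lef1, Tcf7 and Tcf7l1 and for downstream starts of Lef1 and Tcf7l2 that lie inside the gene. Every window of the family that holds CTTTGT is among those printed, and some windows without it are not printed. Capitals mark CTTTGT, a short form of the Tcf/Lef binding motif, on either strand. The windows are chr3:131110047-131110346 (Lef1, first start, plus strand), chr3:131156044-131156343 (Lef1, downstream start, plus), chr11:52282965-52283264 (Tcf7, minus), chr6:72788996-72789295 (Tcf7l1, minus) and chr19:55895071-55895370 (Tcf7l2, downstream start, plus).
Lef1 first start: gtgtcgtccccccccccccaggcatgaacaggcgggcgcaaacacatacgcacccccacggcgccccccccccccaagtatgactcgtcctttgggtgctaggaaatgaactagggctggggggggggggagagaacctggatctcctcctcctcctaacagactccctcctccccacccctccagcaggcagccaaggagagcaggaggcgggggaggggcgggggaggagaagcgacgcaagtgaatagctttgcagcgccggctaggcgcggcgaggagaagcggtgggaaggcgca
Lef1 downstream start: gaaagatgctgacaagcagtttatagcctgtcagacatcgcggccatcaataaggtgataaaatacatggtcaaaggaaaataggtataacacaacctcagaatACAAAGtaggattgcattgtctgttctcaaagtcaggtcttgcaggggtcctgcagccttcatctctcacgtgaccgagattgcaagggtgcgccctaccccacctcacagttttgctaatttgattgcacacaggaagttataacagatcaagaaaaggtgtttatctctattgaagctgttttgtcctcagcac
Tcf7 first start: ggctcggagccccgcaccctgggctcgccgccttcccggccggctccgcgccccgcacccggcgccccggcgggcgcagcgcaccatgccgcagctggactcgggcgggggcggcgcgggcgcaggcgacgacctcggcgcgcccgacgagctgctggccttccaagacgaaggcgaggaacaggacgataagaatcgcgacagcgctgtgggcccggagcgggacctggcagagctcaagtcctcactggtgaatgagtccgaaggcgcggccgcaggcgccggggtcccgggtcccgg
Tcf7l1 start: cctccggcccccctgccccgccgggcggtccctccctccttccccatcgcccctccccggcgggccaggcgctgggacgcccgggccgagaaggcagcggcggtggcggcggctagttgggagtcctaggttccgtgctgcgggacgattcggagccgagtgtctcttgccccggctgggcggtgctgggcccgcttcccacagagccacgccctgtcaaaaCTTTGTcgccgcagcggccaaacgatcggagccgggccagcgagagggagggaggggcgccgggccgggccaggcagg
Tcf7l2 downstream start: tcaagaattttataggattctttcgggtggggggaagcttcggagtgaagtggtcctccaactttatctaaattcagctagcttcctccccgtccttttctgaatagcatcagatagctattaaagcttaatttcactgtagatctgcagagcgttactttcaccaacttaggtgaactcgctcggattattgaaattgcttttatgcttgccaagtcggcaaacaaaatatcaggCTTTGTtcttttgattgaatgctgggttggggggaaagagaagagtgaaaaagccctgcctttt
The longer motif CTTTGAT, which does not contain CTTTGT, occurred on neither strand of the 9 RefSeq windows of the 4 genes. Of 32851 mouse windows of this length, 3.73% hold it. CTTTGT occurred in 3 of the 9 windows, against 18.7% of all windows. It lay at -28 to -23 from the start of Tcf7l1, at -14 to -9 from the downstream start of Tcf7l2, and, reversed as ACAAAG, at -146 to -141 from the downstream start of Lef1. That Lef1 start lies 45997 bases into the gene, in an intron of 7 of 8 GENCODE vM21 transcripts, and its window is 43.7% G and C, against 67.3% at the first start. The downstream Tcf7l2 start lies 153511 bases from the first, in an intron of 18 of 22 transcripts, with 42% G and C. GENCODE places 0 transcript starts within 50 bases of either downstream start, of the Tcf7l1 start or of the first Lef1 start. Another Lef1 start, 2494 bases from the first, has 3 transcripts that start within 50 bases of it, and its window is not printed here. The first Tcf7l2 start, also not printed, has 2 transcripts that start within 50 bases of it, and its window holds neither motif. The first Tcf7 start that RefSeq lists lies in an exon of 1 of 2 GENCODE transcripts, and 1 transcript starts within 50 bases of it. Bases outside the windows were not searched, so a window without a match does not show that a promoter lacks one. A match is only a run of letters, and no binding was measured in these libraries.

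All 4 genes were expressed in every library. On the RPKM scale, counts scaled by library size and transcript length, which allows comparison between genes, libraries with both compounds had 20.5 to 46.8 RPKM of Lef1, 16.9 to 35.9 of Tcf7l2, 10.2 to 22.2 of Tcf7 and 5.54 to 12.8 of Tcf7l1. With CT99021 alone the levels were 21.4 to 50.6 RPKM for Lef1, 23.2 to 37.7 for Tcf7l2, 9.61 to 17.6 for Tcf7 and 5.43 to 13.3 for Tcf7l1. In both groups the ranges of Lef1 and Tcf7l2 overlapped, and so did those of Tcf7 and Tcf7l1. Lef1 exceeded Tcf7l2 in replicates 1 and 2 with CT99021 but not in replicate 3, and in all 3 replicates with both compounds.

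GW3965 libraries had 23.5 to 53.6 RPKM of Tcf7l2, 8.25 to 14.9 of Tcf7l1, 6.33 to 13.1 of Lef1 and 3.42 to 7.03 of Tcf7. Control libraries had 31.2 to 49.6 RPKM of Tcf7l2, 9.19 to 16.8 of Tcf7l1, 9.96 to 12.8 of Lef1 and 4.61 to 7.43 of Tcf7. Tcf7l2 was the highest of the family and Tcf7 the lowest in each library of these 2 groups, while the ranges of Tcf7l1 and Lef1 overlapped. Within a library, the ratio of Lef1 to Tcf7l2 was 1.12 to 1.67 with both compounds and 0.924 to 1.66 with CT99021, against 0.176 to 0.336 with GW3965 and 0.201 to 0.348 in control. The Lef1 share of the family's summed RPKM averaged 39.6% with both compounds and 39.6% with CT99021, against 14.8% with GW3965 and 16.3% in control. The Tcf7l2 share averaged 30.1% and 33.9% in the same treated groups, against 58.3% with GW3965 and 57.2% in control. These shares are descriptions of 1 length per gene as the authors list it, and no test was made on them.

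**Figure D1:**
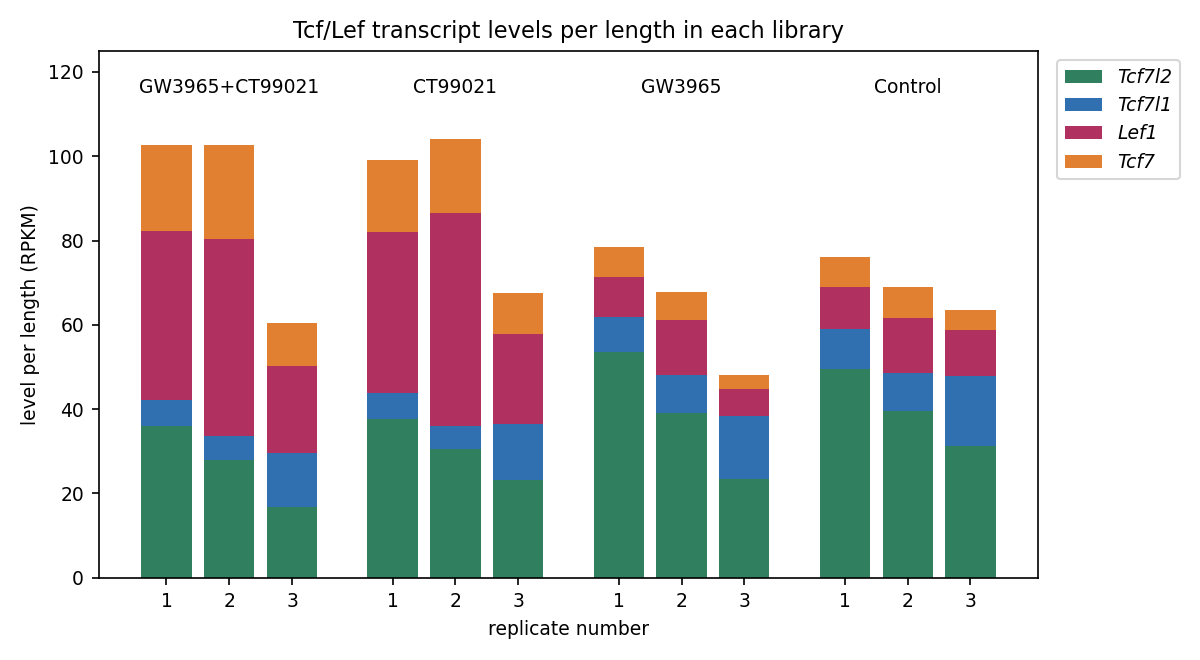
Summed level per length (RPKM, vertical axis) of Tcf7l2, Tcf7l1, Lef1 and Tcf7 in each of the 12 libraries, grouped by treatment and ordered by replicate number. The Lef1 share averaged 39.6% in both groups with CT99021, against 14.8% with GW3965 and 16.3% in control.

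The sum over the family was 102.7, 102.6 and 60.4 RPKM in the 3 libraries with both compounds and 99.0, 104.2 and 67.5 RPKM with CT99021, in the order of replicates 1, 2 and 3. It was 78.35, 67.8 and 48.15 RPKM with GW3965 and 76.2, 68.9 and 63.4 RPKM in control. The sum was higher with CT99021 than in control in all 3 replicate numbers, by the least in replicate 3, and with both compounds it was lower than control in replicate 3.

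Lef1, which encodes an activator that is itself a known target of beta-catenin, was 97.3, 129 and 54.9 CPM with CT99021, against 25.5, 32.8 and 27.8 CPM in control, for replicates 1, 2 and 3. All 3 CT99021 libraries lay above all 3 control libraries. The difference was 3.82-fold in replicate 1, 3.95-fold in replicate 2 and 1.98-fold in replicate 3. Because these are bulk libraries, more RNA per cell and a larger share of cells with the transcript cannot be told apart, here and for every gene below. When edgeR's quasi-likelihood model of 15608 genes took replicate number as a block, Lef1 rose by 1.63 ± 0.19 on the log2 scale (SE, n = 3 each), with an adjusted p of 0.00101. Without the block the adjusted p was 0.174.

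The same pattern was measured in the 6 libraries that share none with those: Lef1 was 103, 119.7 and 52.5 CPM with GW3965+CT99021, against 24.1, 33.5 and 16.2 CPM with GW3965 alone. The groups did not overlap, and the libraries with both compounds were 4.26-fold, 3.58-fold and 3.24-fold higher within replicate numbers. In the edgeR fit with the block, the rise was 1.88 ± 0.19 on the log2 scale (adjusted p 4.38e-04), against an adjusted p of 0.109 without it. Replicate 3 had the lowest Lef1 level of its group with both compounds, with CT99021 and with GW3965, but not in control, where replicate 1 was lowest.

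Tcf7, the other activator, was 39.8, 40.9 and 22.3 CPM with CT99021, against 17.0, 17.3 and 10.7 CPM in control. The 3 treated libraries again lay above all controls, by 2.34-fold, 2.37-fold and 2.09-fold within replicate numbers. Its rise in the edgeR fit with the block was 1.19 ± 0.10 on the log2 scale, with an adjusted p of 1.74e-04, and the adjusted p without the block was 0.339. Tcf7 was 47.5, 51.6 and 23.8 CPM with both compounds, against 16.3, 15.5 and 7.95 CPM with GW3965, also without overlap. This second rise was 1.61 ± 0.10 on the log2 scale by edgeR with the block (adjusted p 4.24e-05), and its adjusted p was 0.15 without it. Within replicate numbers the libraries with both compounds were 2.91-fold, 3.34-fold and 2.99-fold higher.

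**Figure D2:**
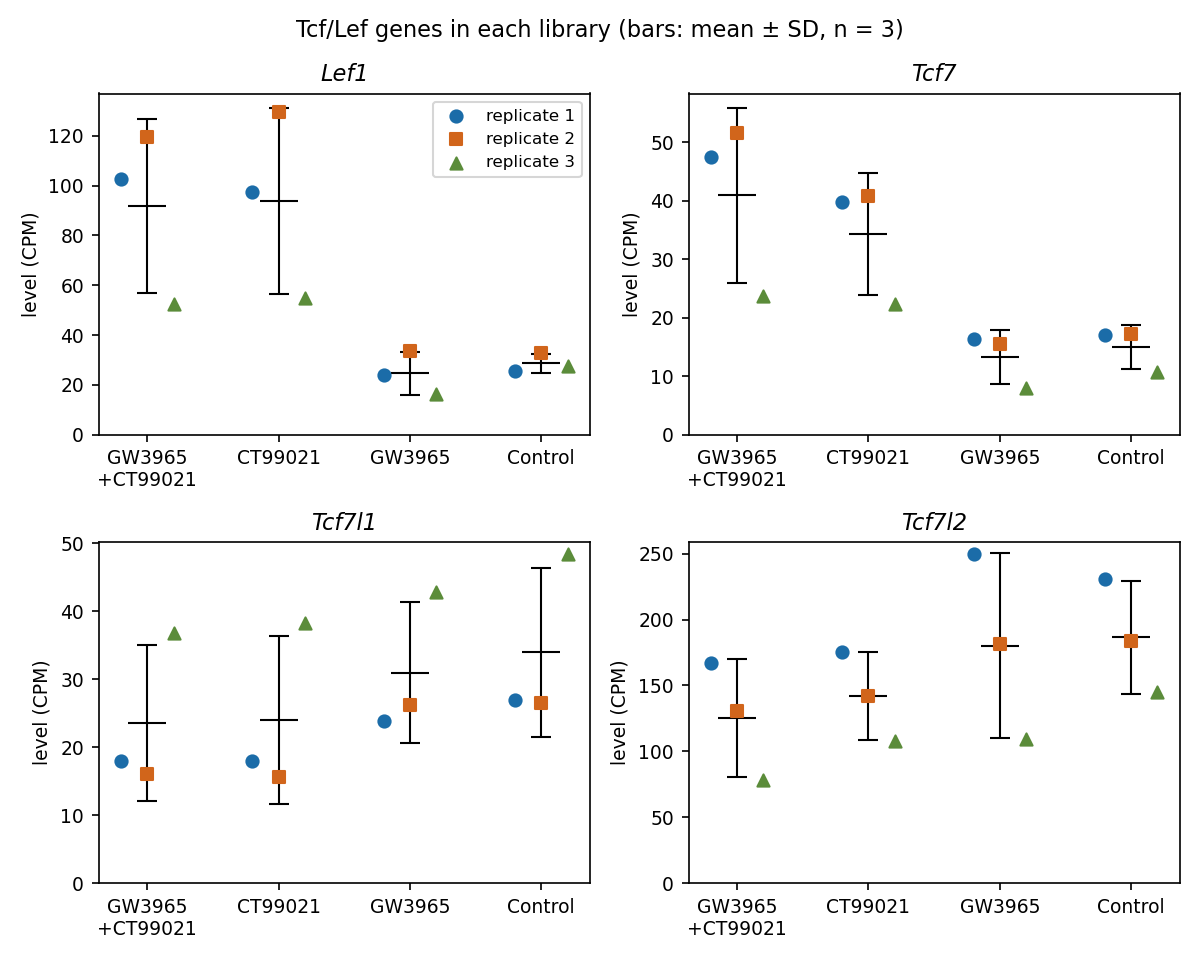
Level (CPM, vertical axes, each starting at 0) of the 4 genes in every library, with the group mean and SD of 3 libraries as bars and the replicate numbers as symbols. Lef1 and Tcf7 do not overlap between libraries with and without CT99021, whereas Tcf7l1 and Tcf7l2 overlap and separate only within a replicate number.

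Tcf7l1, the member best known as a repressor that holds Wnt targets silent in progenitors, was 18, 15.7 and 38.2 CPM with CT99021, against 27.0, 26.5 and 48.3 CPM in control. The groups overlapped, because replicate 3 of CT99021 exceeded control replicates 1 and 2, but the treated library was the lower one in all 3 replicate numbers. With the block, edgeR gave a fall of 0.55 on the log2 scale (-0.55 ± 0.11, adjusted p 0.0109), and without it an adjusted p of 0.807. With both compounds Tcf7l1 was 17.9, 16.0 and 36.8 CPM, against 23.8, 26.15 and 42.85 CPM with GW3965. The libraries again overlapped and again were lower in 3 of 3 replicate numbers, with a log2 change of -0.44 ± 0.11 by edgeR with the block (adjusted p 0.0205; without it, 0.812).

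Tcf7l2, the most abundant member in control and, in the embryo, a known marker of the thalamus, was 175, 142 and 108 CPM with CT99021, against 231, 184 and 145 CPM in control. The ranges overlapped, and within each replicate number the CT99021 library was lower, at 0.744 to 0.773 of its control. This fall was -0.40 ± 0.10 on the log2 scale in edgeR with the block (adjusted p 0.0273), and the adjusted p was 0.8 without it. With both compounds Tcf7l2 was 167, 130.5 and 78.4 CPM, against 249.6, 181 and 109.5 CPM with GW3965. These groups overlapped as well, and the libraries with both compounds were at 0.669 to 0.720 of their GW3965 counterparts, a log2 change of -0.51 ± 0.10 by edgeR with the block (adjusted p 0.00733; without it, 0.624).

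Over all genes tested and with the block, edgeR called 8.23% of genes higher and 7.59% lower with CT99021 than in control, and 11.8% higher and 8.81% lower with both compounds than with GW3965. Of the 4 members 2 were higher and 2 lower in each comparison. Without the block the shares called were 0.0577% and 0.0769%, and no member was among them, although Lef1 and Tcf7 had unadjusted p values of 9.46e-04 and 0.00854 in the first comparison by edgeR. Groups separated without overlap for 7.22% of genes in the higher and 7.62% in the lower direction in the first comparison and for 8.18% and 7.2% in the second, and Lef1 and Tcf7 were among the higher ones in both.

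The comparison of both compounds with control gave the same directions. Lef1 was 4.03-fold, 3.65-fold and 1.89-fold higher within replicate numbers and Tcf7 2.79-fold, 2.99-fold and 2.22-fold higher, each without overlap. The edgeR log2 changes with the block were 1.61 ± 0.19 for Lef1 (adjusted p 7.74e-04), 1.42 ± 0.10 for Tcf7 (4.86e-05), -0.57 ± 0.11 for Tcf7l1 (0.00743) and -0.61 ± 0.10 for Tcf7l2 (0.00366). The edgeR adjusted p values without the block were 0.124, 0.162, 0.715 and 0.559 in the same gene order. The fit with the block called 11.3% of genes higher and 8.95% lower, the fit without it 0.115%, and 9.13% and 8.18% of genes were higher and lower without overlap.

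**Figure D3:**
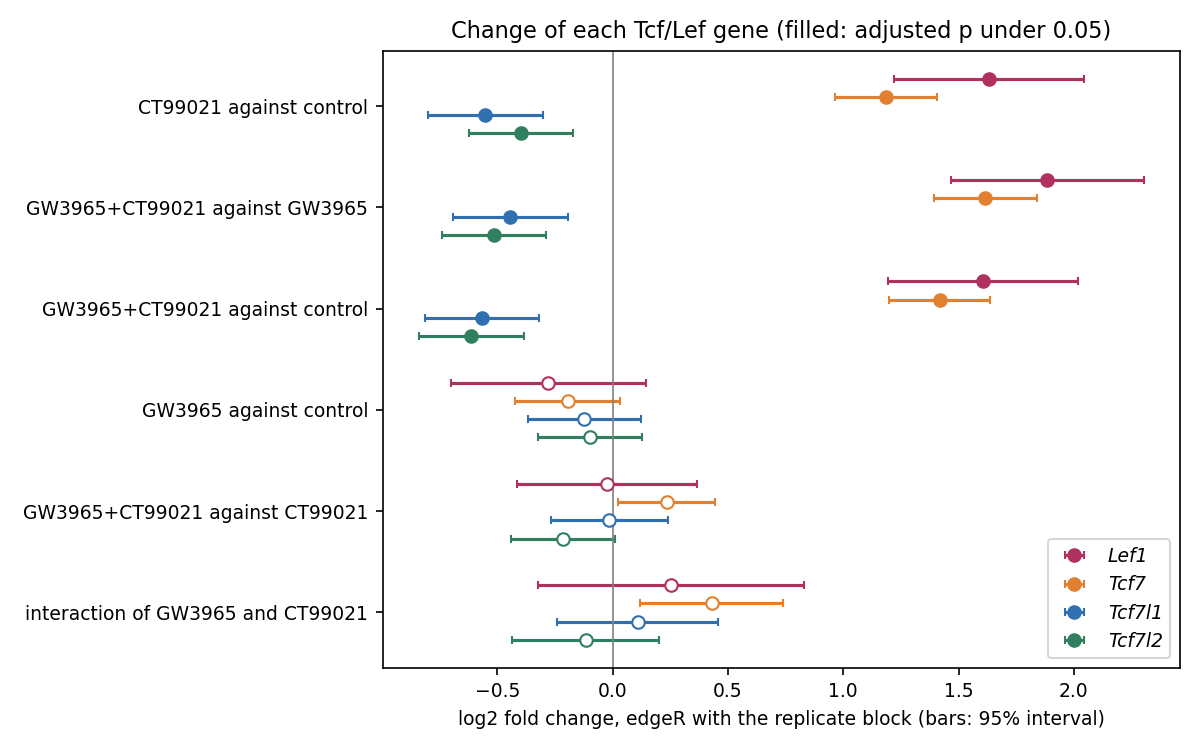
Log2 fold change (horizontal axis) of each gene in the 5 comparisons and in the interaction, from edgeR with replicate number as a block, with 95% intervals as bars. Filled points have an adjusted p under 0.05: Lef1 and Tcf7 lie right of 0 and Tcf7l1 and Tcf7l2 left of it in all 3 comparisons with and without CT99021, and no point is filled in the other comparisons.

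GW3965 alone was set against control to ask what the LXR agonist does to the family without GSK3 inhibition. Lef1 changed by -0.28 ± 0.19 on the log2 scale, Tcf7 by -0.20 ± 0.10, Tcf7l1 by -0.12 ± 0.11 and Tcf7l2 by -0.10 ± 0.10, and the edgeR adjusted p with the block was 0.959 for each. The 95% intervals were -0.70 to 0.14 for Lef1, -0.42 to 0.03 for Tcf7, -0.37 to 0.12 for Tcf7l1 and -0.32 to 0.13 for Tcf7l2, so moderate falls are within reach of these data. Lef1 was lower in replicate 3 (16.2 CPM with GW3965, against 27.8 CPM in control) and differed little in replicates 1 and 2 (24.1 and 33.5 CPM, against 25.5 and 32.8 CPM). The unadjusted p values were 0.0843 to 0.355, and the share of all genes called in this comparison was 0.0192%.

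Adding GW3965 to CT99021 left the 4 genes without a call as well, with 0.0192% of all genes called. The log2 change was -0.03 ± 0.18 for Lef1, 0.23 ± 0.09 for Tcf7, -0.01 ± 0.11 for Tcf7l1 and -0.22 ± 0.10 for Tcf7l2, with edgeR adjusted p values of 0.984, 0.734, 0.986 and 0.734; the unadjusted p of Tcf7 was 0.0332. The intervals were -0.42 to 0.36 for Lef1, 0.02 to 0.44 for Tcf7, -0.27 to 0.24 for Tcf7l1 and -0.44 to 0.01 for Tcf7l2. The interaction, which asks whether GW3965 acts differently with and without CT99021, was 0.25 ± 0.26 for Lef1, 0.43 ± 0.14 for Tcf7, 0.11 ± 0.16 for Tcf7l1 and -0.12 ± 0.14 for Tcf7l2 on the log2 scale. None passed (edgeR adjusted p 0.999 for each with the block), and 0% of all genes were called, although 523 had an unadjusted p under 0.05. Without the block edgeR called 0 genes with 74 under that unadjusted level, and DESeq2 called 0 with and without the block. Fitted to the 7 libraries left without the set of 5, which include 1 with both compounds, edgeR with the block called 60 genes in the interaction and 90 in GW3965+CT99021 against CT99021, none of them a member.

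Partners of the family were then read from the same fit with the block. The counts below stand beside the shares of all genes, 8.23% called higher and 7.59% lower with CT99021 against control, and 11.8% higher and 8.81% lower with both compounds against GW3965. Without the block edgeR called 0 genes of these 4 lists in either comparison, with lowest adjusted p values of 0.481 and 0.51 for the coactivators, 0.331 and 0.263 for the corepressors, 0.363 and 0.539 for the inhibitors and 0.103 and 0.0867 for the targets. Of 13 coactivators, 1 rose and 2 fell with CT99021 against control, 0 rose and 1 fell with both compounds against GW3965, and the median log2 changes were -0.02 and 0.07, against 0.02 and 0.01 over all genes. Ctnnb1, which encodes beta-catenin, averaged 1176 ± 82.3 CPM with CT99021 and 1192 ± 72.8 CPM in control (SD, n = 3 each), a log2 change of -0.02 ± 0.07 with an edgeR adjusted p of 0.895. Cdk8, the kinase of the Mediator complex, rose by 0.27 ± 0.08 (edgeR adjusted p 0.0448). The acetyltransferase gene Ep300 fell by 0.27 (-0.27 ± 0.07, edgeR adjusted p 0.0302), and Tbl1xr1, whose product exchanges corepressors for coactivators, changed by -0.40 ± 0.09 (0.0153) and, with both compounds against GW3965, by -0.38 ± 0.09 (0.0144).

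Corepressors passed in both directions. Of 10, 2 rose and 2 fell with CT99021 against control, and 3 rose and 3 fell with both compounds against GW3965; the medians were 0.06 and 0.11. Among the Groucho/TLE genes, whose products bind Tcf/Lef proteins directly, Tle1 rose by 0.58 ± 0.15 (edgeR adjusted p 0.0266) and Tle3 by 0.49 ± 0.14 (0.0363), while Tle4 changed by -0.42 ± 0.08 (0.00721). Tle1, Tle3 and Tle4 moved the same way with both compounds against GW3965, at 0.58 ± 0.15, 0.63 ± 0.14 and -0.42 ± 0.08 on the log2 scale (edgeR adjusted p 0.0219, 0.011 and 0.00518). Ctbp2, a corepressor that Tcf7l1 and Tcf7l2 can recruit, fell in both comparisons, with log2 changes of -0.45 ± 0.08 (edgeR adjusted p 0.00465) and -0.53 ± 0.08 (0.00185). In the second comparison alone, Hdac2 rose (0.18 ± 0.06, edgeR adjusted p 0.0469) and Tle2 fell (-0.66 ± 0.19, 0.0356); whether the 2 comparisons differ for them was not shown by the interaction, with an adjusted p of 0.999 each.

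Proteins that restrain Tcf/Lef factors or beta-catenin were represented by 10 genes, of which Sox17 was at 0 counts and 9 were tested. With CT99021 against control, 0 rose and 2 fell (median -0.09), and with both compounds against GW3965, 0 rose and 1 fell (median 0.01), beside 7.59% and 8.81% of all genes called lower. Hbp1, which encodes an HMG-box repressor of Wnt targets, averaged 36.6 ± 17.2 CPM with CT99021 and 82.0 ± 45.7 CPM in control (SD, n = 3 each). Its log2 change was -1.13 ± 0.08 (edgeR adjusted p 7.09e-05), and with both compounds against GW3965 it was -0.94 ± 0.08 (1.38e-04). Cby1, whose product competes with Tcf/Lef for beta-catenin, changed by -0.63 ± 0.16 with CT99021 (edgeR adjusted p 0.0301; with both compounds against GW3965, -0.32 ± 0.17, adjusted p 0.203).

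Known target genes of the family made the largest counts. Of 20, Cdx2 had 0 counts and Cdx1 2 counts over all libraries, and 18 were tested; 9 rose and 1 fell with CT99021 against control, and 10 rose and 1 fell with both compounds against GW3965, beside 8.23% and 11.8% of all genes called higher. The median log2 change was 0.63 and 0.68, against 0.02 and 0.01 over all genes. The negative feedback genes Rnf43 and Znrf3, whose products remove Wnt receptors, rose by 1.38 ± 0.34 and 0.61 ± 0.08 with CT99021 (edgeR adjusted p 0.0247 and 0.00149). Myc went the other way, at -0.57 ± 0.15 and, with both compounds against GW3965, -0.62 ± 0.15 (edgeR adjusted p 0.0294 and 0.0162), and the stem cell gene Lgr5 was 0.12 ± 0.11 and -0.31 ± 0.11 with adjusted p values of 0.487 and 0.0793. The list holds genes picked in other studies for this response, and earlier results on these libraries were known when it was drawn up, so its count is no independent evidence of a direction. In GW3965 against control and in both compounds against CT99021, 0 genes of these 4 lists passed by edgeR with the block, with adjusted p values of at least 0.959 and 0.734.

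**Figure D4:**
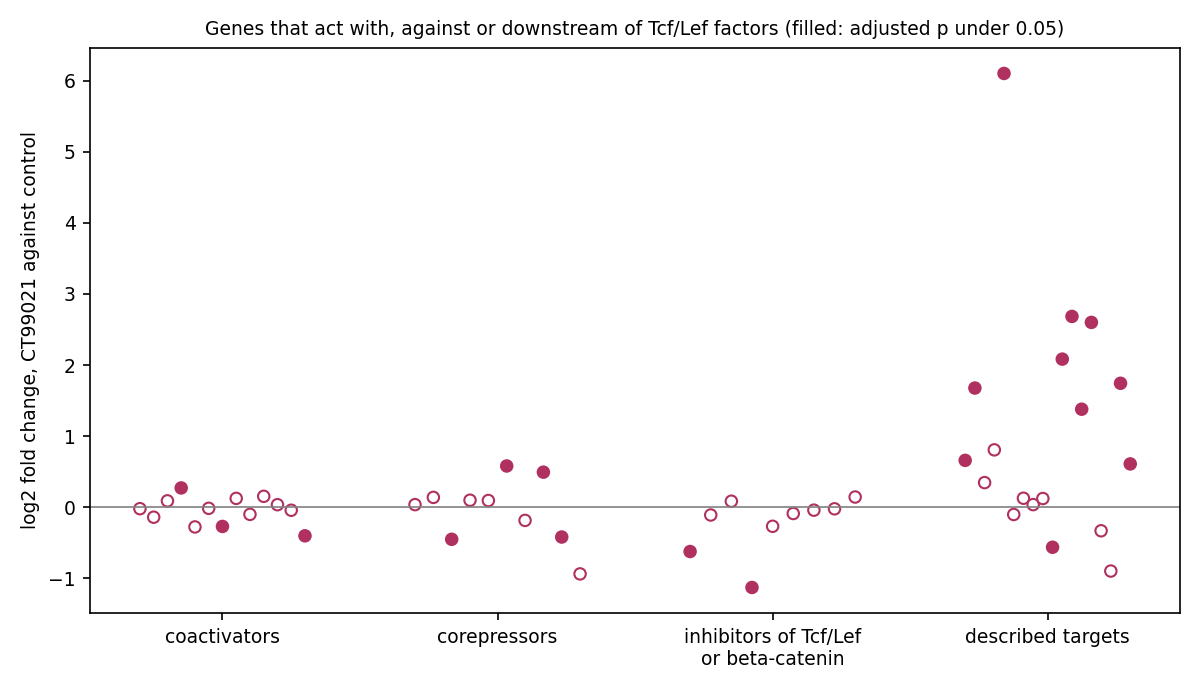
Log2 fold change of CT99021 against control (vertical axis) for the tested coactivators, corepressors, inhibitors and described targets of Tcf/Lef factors, 1 point per gene, from edgeR with replicate number as a block. Filled points have an adjusted p under 0.05: 1 coactivator rose and 2 fell, 2 corepressors rose and 2 fell, 9 targets rose and 1 fell, and 0 inhibitors rose and 2 fell.

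Genes whose levels followed each member most closely were found by Pearson correlation of log2 CPM over the 12 libraries after the mean of each replicate number was subtracted, among 12267 genes that average 5 CPM or more. For Lef1 these were Tnfrsf19 (r = 0.996), Nkd1 (0.996), Axin2 (0.995) and Sp5 (0.993). The 4 closest to Tcf7 were of another kind, the ribosomal protein genes Rps3 (0.995) and Rpl13a (0.994), the elongation factor gene Eef1b2 (0.993) and Wdr55 (0.992). Their own changes were small, at log2 0.28 for Rps3, 0.33 for Rpl13a, 0.28 for Eef1b2 and 0.43 for Wdr55 with CT99021 against control, and the first 3 have many near-identical pseudogenes, so their counts are uncertain. Tcf7l1 was followed by Aldh6a1 (0.982), Cxxc5 (0.972), Rab4b (0.971) and Etv1 (0.970), and Tcf7l2 by Sarm1 (0.986), Vash1 (0.977), Olig1 (0.977) and Racgap1 (0.976).

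These coefficients describe libraries that fall into 6 with and 6 without CT99021, and within each 6 they rest on few differences. With Lef1, r in the 6 libraries with CT99021 was 0.426 for Tnfrsf19, 0.758 for Nkd1, 0.077 for Axin2 and 0.74 for Sp5. In the 6 without, these were 0.993, 0.966, 0.996 and 0.985. For Tcf7l2 and Sarm1, r was 0.971 in each 6. With Tcf7l1, r in the 6 with CT99021 was -0.5 for Aldh6a1, -0.087 for Cxxc5, -0.884 for Rab4b and 0.472 for Etv1. In the 6 without, these were 0.593, 0.84, 0.984 and 0.848. Over all 12 without the subtraction, they were 0.958, 0.224, 0.592 and 0.649. With Tcf7, r without the subtraction was 0.992 for Rps3, 0.686 for Rpl13a, 0.991 for Eef1b2 and 0.991 for Wdr55. In the same order it was 0.893, 0.719, 0.929 and 0.922 in the 6 libraries with CT99021. In the 6 without, it was 0.821, 0.951, 0.932 and 0.922. Among the members, the measure over all 12 libraries and its values within those with and without CT99021 could differ in sign. Lef1 and Tcf7 had 0.978 over all 12, -0.359 within the 6 with CT99021 and 0.924 within the 6 without. Lef1 and Tcf7l1 had -0.911 over all 12, -0.06 with CT99021 and 0.757 without, and Tcf7l1 and Tcf7l2 had 0.83, 0.731 and 0.476. Without the subtraction Tcf7l1 and Tcf7l2 had r = -0.391, and Tcf7l1 was highest and Tcf7l2 lowest in replicate 3 of every group.

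All 4 genes varied with replicate number, and the markers of other cell types moved with it. Within a group the highest library exceeded the lowest by 1.80-fold to 2.44-fold for Tcf7l1 and by 1.59-fold to 2.28-fold for Tcf7l2. In the 4 libraries numbered 3, where Tcf7l1 was high and Tcf7l2 low, the 8 forebrain and thalamus markers summed to 89.4 to 138 CPM, against 174 to 219 CPM in the other 8. Mesenchymal markers, all 8 detected, were as given above, and their part in these levels was not tested. The 9 lymphocyte markers, genes of cells known for Lef1 and Tcf7 expression, summed to 4.16 to 5.83 CPM in the libraries numbered 3, against 1.48 to 2.88 CPM in the other 8. Il7r averaged 0.76 to 1.86 CPM and Cd3d 0.570 to 0.822 CPM over the 4 groups, while Cd3e had 1 count in all and Cd3g 0. With both compounds against control, Il7r rose by 1.27 ± 0.36 on the log2 scale (edgeR adjusted p 0.0344 with the block). Cd3d, the only other gene of the list tested, changed by -0.15 ± 0.44 (0.835). Of all genes, 11.3% were called higher in that comparison. Without the block the lowest edgeR adjusted p of the list was 0.552. The part of these cells in the levels of Lef1 and Tcf7 was not tested.

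Within the libraries numbered 1 and 2 alone, the changes with CT99021 against control were 1.94 ± 0.08 for Lef1, 1.22 ± 0.08 for Tcf7, -0.69 ± 0.12 for Tcf7l1 and -0.40 ± 0.06 for Tcf7l2 on the log2 scale (edgeR adjusted p 7.31e-05, 6.38e-04, 0.0072 and 0.00447). The 7 libraries outside the set of 5 gave 1.94, 1.22, -0.69 and -0.40. Their control and CT99021 libraries are the same ones as in the fit of numbers 1 and 2. For this comparison the 2 fits are therefore not separate checks, although both are counted among the alternatives below. Lef1 and Tcf7 passed in each of 18 alternatives with the block in all 3 comparisons with and without CT99021; in the fit of the 7 libraries, GW3965+CT99021 is a single library that is assumed to vary like the other groups. Tcf7l1 and Tcf7l2 did not pass in every alternative: leaving out control replicate 1 or 2 or CT99021 replicate 1 or 2 ended both calls against control, leaving out control replicate 3 ended that of Tcf7l2, and the edgeR adjusted p then reached 0.0649 and 0.133. With both compounds against GW3965, Tcf7l1 lost its call without replicate 1 or 2 of either group or once the set of 5 was entered as a batch (adjusted p up to 0.0993), and Tcf7l2 kept it in all 18.

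GENCODE vM21 lists 11 genes that overlap a member, 5 of them on the opposite strand, and the sources used here do not say whether the counting used strand. Only Gm15401, antisense to Tcf7l1, has a row under its own symbol. It had 20.9, 16.4 and 17.7 CPM with CT99021, against 11.4, 15.8 and 18.6 CPM in control. The groups overlapped, and its log2 change was 0.30 ± 0.22 (edgeR adjusted p 0.386 with the block). With both compounds against GW3965 its log2 change was -0.33 ± 0.22 (edgeR adjusted p 0.323), in the direction of Tcf7l1. Reads of the pair cannot be told apart if strand was not used.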

How the data were processed

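RNA-seq was measured in 12 libraries of 4 groups, as the labels give them. The authors deposited 1 table of read counts per gene, unnormalized, with a transcript length for each gene, entered here as a score because its source is not stated. Per the submitters' processing notes, build mm9 and Bowtie were used; no source used here gives the Bowtie version, the annotation or the strand setting. Per the labels' protocols, total RNA was made into Illumina TruSeq libraries. Rows of repeat families (1217) were left out, and no row lacked a name.

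CPM were computed with TMM factors, and RPKM with the authors' lengths. All 15608 genes that passed filterByExpr were fitted with edgeR 4.0.16 (R 4.3.3, quasi-likelihood F test) over all 12 libraries, with Benjamini-Hochberg adjustment and a threshold of 0.05. The planned fit had 1 mean per group; the fit that leads the text adds the replicate number as a block. The labels do not say what the numbers mean. Deviations from group means correlated at 0.496 to 0.828 in the 18 pairs of same-numbered libraries, against -0.677 to 0.241 in other pairs, which by the rule adopted pairs the libraries; values without the block stand beside each member's call, and list genes are given with the block, with a count without it. The block lowered the biological coefficient of variation to 12.67% from 33.36%, with 6 and 8 residual degrees of freedom. SEs are the log2 change over the square root of F. Alternatives were other size factors, no filter, DESeq2 1.42.0, leaving out each library, the libraries numbered 1 and 2, the 7 libraries outside the set of 5, and a batch term for that set.

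Named genes were the 4 members, the 4 genes most correlated with each, and list genes past the test; Ctnnb1, Lgr5, the markers and targets at few counts or not past the test, Lars2 and Gm15401 were named after their values were seen. The members, the 4 partner lists and the 10 cell type marker lists were chosen with earlier results of these data known. Protein sequences were not used here.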

Additional observations from a re-analysis of the deposited data

Results flagged for a closer look

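The differences in Tcf7 between libraries with and without GW3965 pointed in opposite directions without and with CT99021, and neither comparison passed the test. Against control, GW3965 libraries were lower in all 3 replicate numbers, by log2 differences of -0.057, -0.159 and -0.431. Against CT99021, libraries with both compounds were higher in all 3, by 0.255, 0.336 and 0.091. The difference between these effects, tested as the interaction in edgeR with the replicate block, was 0.43 on the log2 scale (95% interval 0.12 to 0.74), with an unadjusted p of 0.0114 and an adjusted p of 0.999, so it did not pass. The interaction stayed between 0.33 and 0.49 in the 18 alternatives with the block, which reuse these same libraries. Tcf7 was flagged by these directions, so the unadjusted p is not independent of that choice.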

How the results depend on the processing

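The replicate block decided the calls: without it edgeR called 0 members in each comparison, and with it 4 in CT99021 against control, 4 in GW3965+CT99021 against GW3965 and 4 in GW3965+CT99021 against control. DESeq2 without the block called 1, 2 and 2 (Lef1 in each, adjusted p 0.00144, 2.05e-04 and 0.00149, and Tcf7 in the last 2). Over all genes, edgeR called 9, 12 and 18 without the block, 2470, 3218 and 3163 with it, and DESeq2 321, 464 and 573 without it. Leaving out single libraries with the block gave 2 to 4 members past the test in CT99021 against control; fewer libraries remained in those fits, and the cause was not tested further. In GW3965 against control, GW3965+CT99021 against CT99021 and the interaction, no member passed in any fit, and values near 0 changed sign. Without single libraries and with the block, log2 values ran from -0.443 to 0.024 for Lef1 and -0.184 to 0.008 for Tcf7l2 (GW3965 against control), -0.158 to 0.103 for Lef1 and -0.104 to 0.088 for Tcf7l1 (GW3965+CT99021 against CT99021), and -0.055 to 0.417 for Lef1 and -0.003 to 0.22 for Tcf7l1 (interaction). Without the block they ran from -0.505 to 0.004 for Lef1, -0.363 to 0.082 for Tcf7, -0.442 to 0.205 for Tcf7l1 and -0.359 to 0.208 for Tcf7l2 (GW3965 against control), -0.308 to 0.27, -0.501 to 0.481 and -0.444 to 0.069 for Lef1, Tcf7l1 and Tcf7l2 (GW3965+CT99021 against CT99021), and -0.09 to 0.488, -0.366 to 0.616 and -0.401 to 0.181 for the same genes (interaction). In the libraries numbered 1 and 2 with the block, Tcf7l2 was 0.052 in GW3965 against control and Tcf7l1 0.012 in GW3965+CT99021 against CT99021. In the 7 libraries outside the set of 5, Tcf7l2 was 0.051 in the first, and Lef1 0.075 and Tcf7l1 0.084 in the second; with a batch term for that set Tcf7l1 was 0.045. The cause of these sign changes was not tested. The 79 counts of Tcf7 in GW3965 replicate 3 were the lowest depth behind any member's value.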

Other observations

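Some markers of the labelled tissue moved in the same libraries as the family. In edgeR with the replicate block, 4 of 9 neural progenitor markers fell with CT99021 against control and 7 of 9 with both compounds against GW3965, and 0 rose, beside 7.59% and 8.81% of all genes called lower. Without the block edgeR called 0 genes of any marker list in either comparison; the lowest adjusted p was 0.299 and 0.235 for the progenitor list and 0.0845 and 0.0794 for the ventral midbrain list. Sox1, a transcription factor of early neural progenitors, changed by -0.67 ± 0.09 and -0.77 ± 0.09 on the log2 scale (edgeR adjusted p 0.002 and 9.07e-04), and Sox3 by -0.99 ± 0.17 and -0.95 ± 0.17 (0.00528 and 0.00464). Of 9 ventral midbrain markers, 2 and 3 fell and 0 rose. En1, En2, Otx2 and Lmx1a had no call in either comparison. Their log2 changes with CT99021 against control were 0.076, -0.099, -0.093 and 0.195 (edgeR adjusted p 0.57, 0.432, 0.525 and 0.559). Wnt1, a ligand made along the midbrain midline, changed by -1.95 ± 0.29 and -1.83 ± 0.29 (edgeR adjusted p 0.00324 and 0.00294), and Lmx1b, a regulator of midbrain dopamine progenitors, by -0.58 ± 0.11 and -0.75 ± 0.11 (0.0083 and 0.00213).

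Markers of other cell types were counted in the same 2 comparisons with the block, beside 8.23% and 11.8% of all genes called higher and 7.59% and 8.81% called lower; counts of 1 in these short lists are near those shares. Of 8 forebrain and thalamus markers 2 fell in each, Lhx9 and Gbx2, the second by -0.85 ± 0.19 and -1.12 ± 0.19 (edgeR adjusted p 0.0158 and 0.00409). Of 8 mesenchyme and pericyte markers, 1 rose with CT99021 against control and 4 rose with both compounds against GW3965, where Twist1 changed by 1.62 ± 0.19 (edgeR adjusted p 9.14e-04). Their sums in that second comparison were 2287 against 1215 CPM in replicate 1, 954.5 against 251.4 CPM in replicate 2 and 3178 against 2591 CPM in replicate 3. How far differing mesenchymal content of single libraries made these calls was not tested. Of 6 neuronal markers 1 rose and 2 fell in the first comparison, and 1 fell in the second. Of 5 endothelial genes tested 1 fell in each, as did 1 of 4 microglial genes, while 0 of 6 oligodendrocyte lineage, 0 of 2 tested lymphocyte and 0 of 5 erythroid markers passed.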
